A study of Mus musculus with 8 samples.

Results

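The 49 genes described here encode the proteins that license, unwind, copy and close replicating DNA, and those that supply its nucleotides. They were taken from a fixed list of symbols, and all 49 were found among the 55421 gene identifiers of the expression table. They fall into 9 origin licensing genes, 15 genes of the helicase and its activation, 8 of the polymerases and primase, 11 of the clamp, clamp loader, single-strand binding and flap processing, 4 of nucleotide supply and 2 of chromatin assembly. The RNA came from E9.25 mouse embryos, when 9 to 11 somites are present, after each embryo was cut into an anterior piece (pharyngeal arch 1 and everything in front of it) and a posterior piece (pharyngeal arch 2 and everything behind it). The genotypes were wild type and Gcnf-/-, which lacks the orphan nuclear receptor GCNF, encoded by Nr6a1. Each of the 4 groups held 2 libraries, numbered 153 and 156 in the wild type and 159 and 163 in the mutants. The labels give no strain, no allele and no statement that the libraries came from separate embryos, so the p-values measure the spread between these libraries.

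Replication starts when the origin recognition complex, with Cdc6 and Cdt1, loads the hexameric MCM2-7 helicase onto DNA in G1. Cdc7 with its activator Dbf4, and the cyclin-dependent kinases, then recruit Cdc45 and the GINS complex, which turns the loaded hexamer into an active helicase in S phase. Primase and DNA polymerase alpha lay down primers, and polymerases delta and epsilon extend them, held to DNA by the PCNA clamp that replication factor C loads. Ribonucleotide reductase, thymidylate synthase and thymidine kinase provide the deoxynucleotides. Many of these genes are textbook targets of the E2F transcription factors and are transcribed most in cells entering S phase.

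The replication genes were abundant in every group. Levels are in TPM, a share of all transcripts that corrects for gene length and allows genes to be compared. The median of the 49 group means was 101 TPM in wild-type anterior, 85.5 in mutant anterior, 89.9 in wild-type posterior and 86.3 in mutant posterior pieces, beside 12.7, 14.1, 13.1 and 14.1 TPM over the 16699 genes tested, and all 49 lay above that median in each group. The highest was Rrm2, the small subunit of ribonucleotide reductase, at 754 ± 31.8 TPM in wild-type anterior pieces (SD, n = 2). The lowest was the flap endonuclease gene Fen1, at 14.5 to 19.6 TPM over the 8 libraries. Some exon sequence is shared with another gene in 19 of the 49. Fen1 shares 84.2% of its exon length with Tmem258 and Gm10143, and the libraries kept no strand, so reads in the shared part cannot be told apart. The same limit holds for Gins2, with 67.3% of its exon length shared with Gse1, for Chaf1a, with 52.5% shared with Ubxn6, and for Orc2, with 29.8% shared with Nif3l1. In the other 15 the shared part was smaller, 0.699% to 15.1%. Summed, the 49 genes took 0.828% and 0.835% of all transcripts in the wild-type anterior libraries and 0.751% and 0.738% in the mutant anterior libraries, without overlap. In posterior pieces the sums overlapped, at 0.749% and 0.675% in the wild type and 0.685% and 0.694% in the mutants.

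The libraries fitted their labelled regions: the summed level of 8 anterior neural markers (Otx2, Six3 and others) was 257 to 443 TPM in anterior and 7.30 to 12.4 TPM in posterior libraries. The level of Nr6a1 itself, 116 to 240 TPM, did not separate the genotypes and does not check them; the position of the deletion was not analysed here. Both libraries numbered 159 held Xist at 25.3 and 30.9 TPM, against at most 0.0749 TPM in the other 6, and the other 6 held the Y-linked Ddx3y at 26.2 to 39.4 TPM, so each mutant group had 1 female and 1 male library and both wild-type groups had male libraries only. Marker genes are called higher or lower here at an adjusted p under 0.05 by limma, with the test described below. Over all genes tested 13.3% were higher and 10.2% lower in mutant anterior pieces, and 8.56% and 2.93% in mutant posterior pieces. Erythroid markers moved with genotype: 6 of 9 were higher in mutant anterior and 5 of 9 in mutant posterior pieces, and none of the 9 was at 0. Their sum was 2.58% to 4.43% of transcripts in mutant anterior and 0.428% to 1.00% in wild-type anterior libraries, and 2.24% to 4.45% against 0.641% to 0.769% in posterior ones. Early neuron markers were higher for 9 of 10 in mutant anterior and 7 of 10 in mutant posterior pieces, none at 0, with sums of 457 to 645 TPM against 162 TPM in both wild-type anterior libraries and 118 to 129 TPM against 71.9 to 74.7 TPM in the posterior ones. Of the anterior neural markers, 5 of 8 were lower in mutant anterior pieces. Visceral endoderm markers had a negative estimate for 10 of 10 in both regions, with medians of −1.19 in anterior and −2.68 in posterior pieces, and 3 (Apoa4, Fga and Spp2) were called lower in posterior pieces. Their sum was 230 and 1111 TPM in the mutant against 2535 and 2101 TPM in the wild-type posterior libraries, and 12.5 and 19.1 against 150 and 19.1 TPM in the anterior ones, where Apoa4 was at 0 in mutant library 159. Of 8 posterior axis markers, 2 were higher and 1 lower in anterior and 1 higher and 2 lower in posterior pieces, with sums of 664 and 621 TPM in the mutant against 1002 and 780 TPM in the wild-type posterior libraries and 14.0 to 19.7 TPM in all anterior ones. Of 8 endothelial markers the same 2, Pecam1 and Cldn5, were higher in both regions, with sums of 292 and 383 against 280 and 245 TPM in anterior and 490 and 512 against 316 and 322 TPM in posterior libraries, none at 0. None of 8 cardiac muscle markers was called in either region, and their sum overlapped between the genotypes in both. The part of these cell type differences in the replication gene results was not tested, and in bulk tissue fewer cells of a type and less RNA per cell cannot be told apart.

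**Figure D1:**
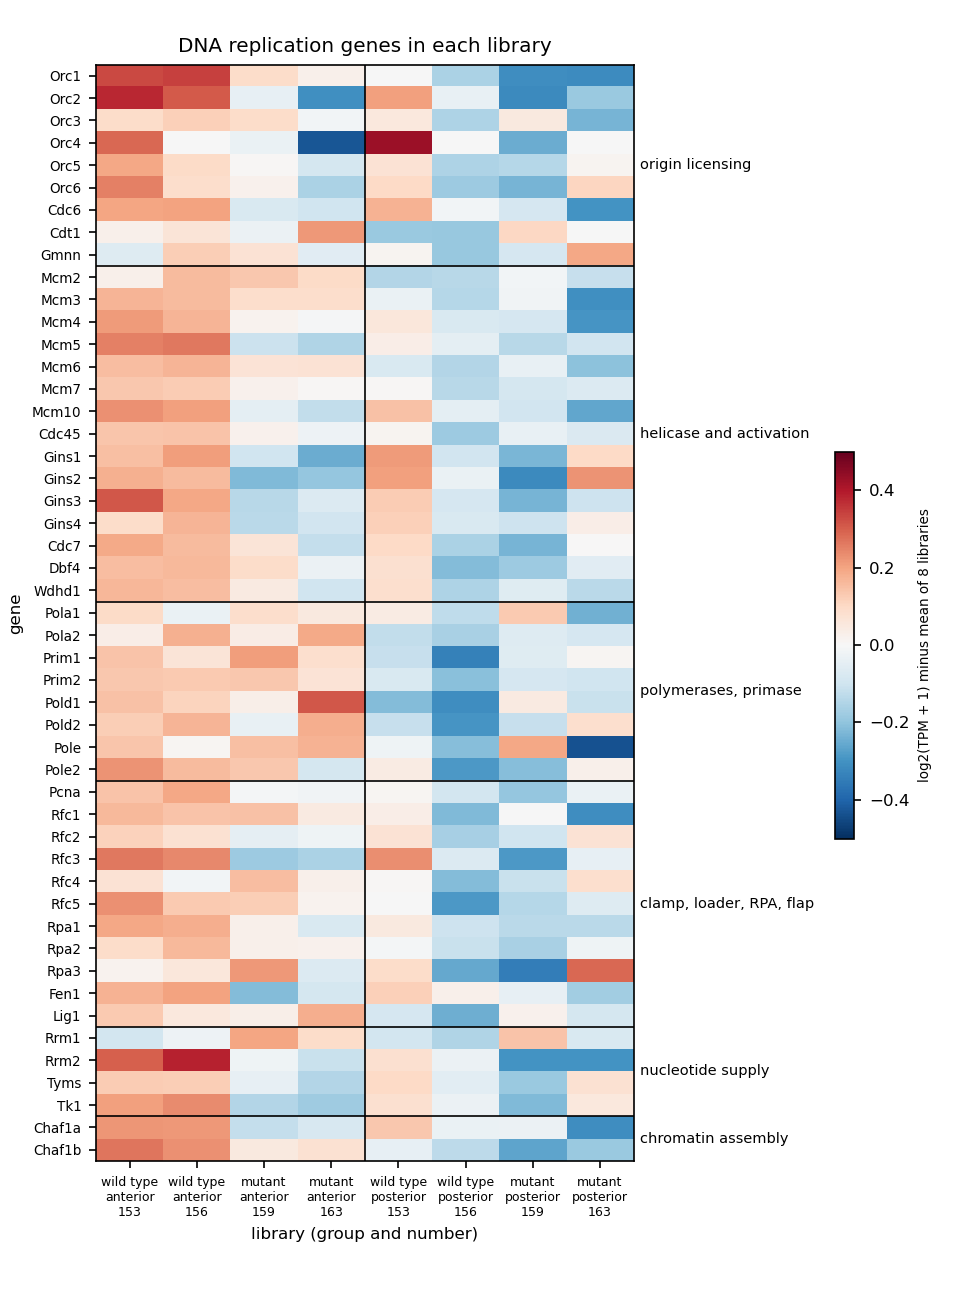
Each row is a replication gene and each column a library, and colour gives log2(TPM + 1) minus that gene's mean over the 8 libraries (red above, blue below). Both wild-type anterior libraries are above the mean for most genes of every role, while wild-type posterior library 156 is lower than library 153 for 48 of the 49.

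Because many of these genes are known E2F targets, the promoter windows of the members were searched on both strands for E2F words. The windows (RefSeq, GRCm38.p6) ran from 250 bases before to 50 after the start. The words were TTTCGCGC, TTTGGCGC, TTTCCCGC and TTTGCCGC, which can overlap each other. A window was given for 41 of the 49 genes, and 14 of them (34.15%) held at least 1 word. This compares with 502 of 11082 genes tested that had a window (4.53%) and 704 of all 27025 genes with a window (2.605%). By role they were 4 of 8 for licensing, 5 of 11 for the helicase, 3 of 6 for the polymerases, 2 of 10 for the clamp group, 0 of 4 for nucleotide supply and 0 of 2 for chromatin assembly. The half-site TCAAGGTCA, to which NR6A1 is known to bind, was in the windows of 0 of 41 members. It was in those of 0.3158% of genes tested and 0.4662% of all genes with a window. At such low shares 0 of 41 does not set the members apart. A match is a description, not a site or a cause. The stretches below are shown for the genes that the genotype or region comparisons turn on (Mcm5, Gins3, Rfc3 and Orc1), with Mcm6 as an MCM gene whose genotype effect did not pass. They are written 5′ to 3′ on the strand of the gene, with the E2F words, or their reverse complements, in capitals. They lie at chr8:75109336-75109387 on the plus strand for Mcm5, chr8:95633498-95633545 on the plus strand for Gins3, chr5:151651181-151651238 on the minus strand for Rfc3, chr4:108579407-108579454 on the plus strand for Orc1 and chr1:128359784-128359835 on the minus strand for Mcm6.
Mcm5: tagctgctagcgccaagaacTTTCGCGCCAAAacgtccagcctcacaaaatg
Gins3: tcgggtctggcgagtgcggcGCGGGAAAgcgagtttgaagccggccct
Rfc3: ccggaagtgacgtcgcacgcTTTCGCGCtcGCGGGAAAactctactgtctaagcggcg
Orc1: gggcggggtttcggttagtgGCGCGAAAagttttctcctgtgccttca
Mcm6: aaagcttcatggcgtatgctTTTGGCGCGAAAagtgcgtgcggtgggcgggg
Mcm5, Rfc3 and Mcm6 each hold 2 words within these stretches, overlapping in Mcm5 and Mcm6. The Mcm6 window also held TTTGGCGC at bases −47 to −40 from the start, outside the stretch shown. The windows of Orc2, Rrm2, Tk1 and Chaf1b, described below, held none of the 4 words.

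The first comparison asked how the replication genes differ between Gcnf-/- and wild-type anterior pieces. In mutant anterior pieces 6 of the 49 were lower and 0 were higher, by limma on log2(TPM + 1) with Benjamini-Hochberg adjustment over all genes tested and a threshold of 0.05. Over all genes tested 10.2% were lower and 13.3% higher in this comparison, 23.6% in all, so the share of members called lower was close to the background. The 6 were Orc2, Mcm5, Gins3, Rfc3, Rrm2 and Tk1, 1 or 2 from each of 4 roles, and none came from the polymerases or from chromatin assembly. In 33 of the 49 both mutant libraries lay below both wild-type libraries, beside 5389 of the 16699 genes tested (32.3%). In 2 of the 49 (Pole and Rrm1) both lay above, beside 5856 of the 16699 (35.1%). The estimate was negative for 38 of 49, beside 7951 of the 16699 genes tested. The median of the members was −0.17 on the log2 scale against 0.02 over all genes tested. Under quantile normalization the median of the members was −0.07 against −0.04 over all genes and 31 estimates were negative, and under median-of-ratios scaling it was −0.18 against 0.01 with 39 negative. None of the 6 calls remained when mutant library 163, wild-type library 153 or wild-type library 156 of the anterior group was left out, although all 6 estimates stayed negative, and without mutant anterior library 159 only Orc2, Mcm5 and Rrm2 were called.

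**Figure D2:**
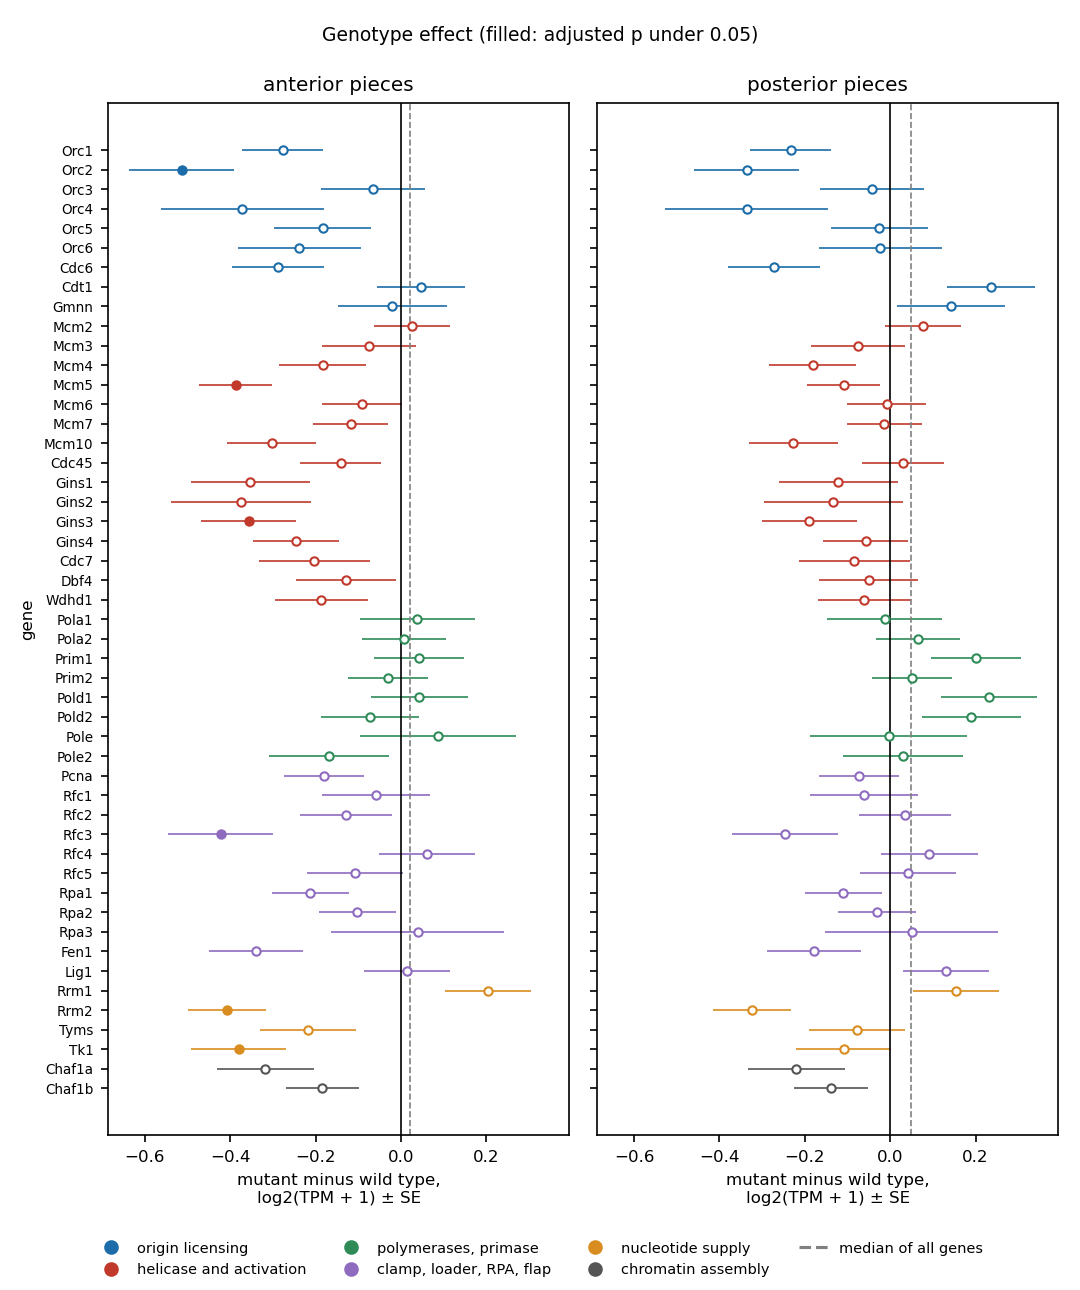
Points give the mutant minus wild-type difference in log2(TPM + 1) for each gene with its standard error, filled where the adjusted p was under 0.05 and coloured by role, and the dashed line is the median over all genes tested. In anterior pieces 6 points are filled, all to the left of 0, and the green polymerase and primase genes lie around 0; in posterior pieces no point is filled.

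Among the licensing genes, which load the helicase at origins, 8 of 9 had a negative estimate in anterior pieces, with a median of −0.24, and 1 passed the test. Orc2, a subunit of the origin recognition complex on chromosome 1 (GRCm38, 58462771 to 58505109, minus strand), was at 134 and 128 TPM in the wild-type and at 100.03 and 83.1 TPM in the mutant anterior libraries. The groups did not overlap, and the difference was −0.51 ± 0.12 (SE) on the log2 scale with an adjusted p of 0.0178 by limma. Nif3l1, which shares part of the Orc2 exons, was also lower in mutant anterior pieces (−0.49 ± 0.10, adjusted p = 0.0103 by limma), and how reads of the 2 genes were divided was not tested. Without a filter on low values the adjusted p of Orc2 was 0.0561.

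The other origin recognition subunits lay on the same side without passing. Orc1, the ATPase subunit that is made anew in each G1, was at 54.8 and 55.2 TPM in the wild-type and 46.3 and 44.1 TPM in the mutant anterior libraries (−0.28 ± 0.095, adjusted p = 0.0655 by limma). Orc4, another ATPase subunit, was at 31.5 and 25.6 against 25.1 and 18.8 TPM, and its difference of −0.37 had the widest error of the group, 0.19. Orc3, Orc5 and Orc6 differed by −0.07, −0.18 and −0.24, and only Orc3 overlapped between the genotypes. Within the complex the level ran from 18.8 TPM (the lowest Orc4 value) to 210 TPM (the highest Orc6 value), and Orc6 and Orc2 were the most abundant subunits in every library.

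Of the loaders and their inhibitor, Cdc6 differed by −0.29 ± 0.11 without overlap and without passing (adjusted p = 0.0862 by limma). Cdt1, which brings MCM to origins, was at 169 and 174 TPM in the wild-type and 163 and 193 TPM in the mutant anterior libraries, and Gmnn, which encodes its inhibitor geminin, at 225 and 256 against 247 and 226 TPM; both overlapped. The ratio of Gmnn to Cdt1, looked at after its values were seen, was 1.17 to 1.62 over the 8 libraries and overlapped between the genotypes in both regions.

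Of the 15 helicase genes 14 had a negative estimate in anterior pieces, beside 7951 of the 16699 genes tested, and the helicase median was −0.19. The same 14 were lower without overlap between genotypes, beside 32.3% of all genes tested, but only Mcm5 and Gins3 passed. Under quantile normalization the median was −0.10 with 11 negative, and Mcm3, Mcm6 and Mcm7 turned positive there. Mcm5, a subunit of the MCM ring on chromosome 8 (75109569 to 75128439, plus strand), was at 628 and 632 TPM in the wild-type and 488 and 474 TPM in the mutant anterior libraries. This difference of −0.39 ± 0.086 had an adjusted p of 0.0133 by limma. Under quantile normalization it was −0.20 with an adjusted p of 0.0578.

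The other 5 ring subunits, which assemble with Mcm5 in equal numbers, differed less. Mcm2 was at 297 and 325 TPM in the wild-type and 321 and 312 TPM in the mutant anterior libraries, which overlapped (0.03 ± 0.09). Mcm4 was at 469 and 455 against 410 and 403 TPM (−0.18 ± 0.10), and Mcm7 at 328 and 326 against 302 and 299.6 TPM (−0.12 ± 0.087). Mcm3 was at 521 and 517 against 492 and 493 TPM and Mcm6 at 471 and 477 against 444 and 445 TPM; in both the genotypes separated by a narrow gap, and neither passed. Mcm5 was the most abundant subunit in both wild-type groups and in mutant posterior pieces, while in both mutant anterior libraries Mcm3 lay above it. Mcm2 was the least abundant subunit except in both mutant anterior libraries and mutant posterior library 159, where Mcm7 was lower. The ratio of Mcm5 to Mcm2, chosen after the values were seen and given as a description, was 2.12 and 1.94 in the wild-type and 1.52 and 1.52 in the mutant anterior libraries, and 2.04 and 1.92 against 1.66 and 1.83 in the posterior ones.

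**Figure D3:**
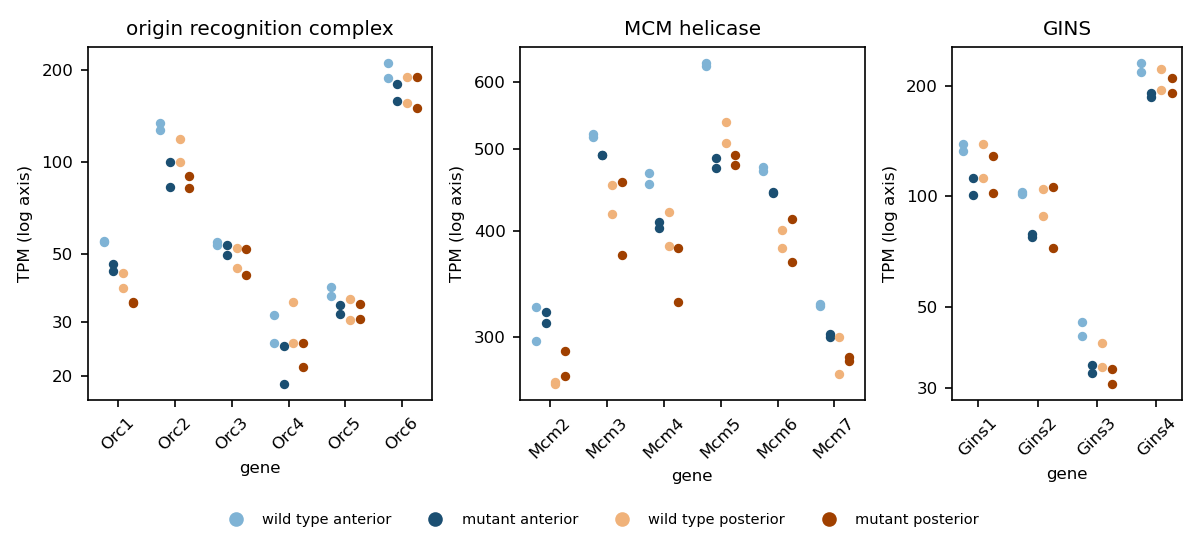
Points give the TPM of each subunit of the origin recognition complex, the MCM helicase and GINS in each library, on log axes, with 2 libraries for each of the 4 groups. Mcm5 is at 628 and 632 TPM in wild-type anterior libraries and at 474 to 539 TPM in the other 6, while the Mcm2 points of the 2 anterior groups overlap.

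GINS is a ring of 4 different subunits that binds Cdc45 and MCM to form the active helicase. All 4 genes were lower in both mutant anterior libraries than in both wild-type ones, as were 32.3% of all genes tested. Gins3, on chromosome 8 (95633453 to 95645060, plus strand), was the least abundant of the 4, at 45.5 and 41.8 TPM in the wild-type and 33.0 and 34.7 TPM in the mutant anterior libraries, and it passed (−0.36 ± 0.11, adjusted p = 0.0474 by limma). Gins1 was at 133 and 139 against 112 and 101 TPM (−0.35 ± 0.14, adjusted p = 0.102 by limma), Gins2 at 103 and 101 against 77.6 and 79.2 TPM (−0.37 ± 0.16, adjusted p = 0.132) and Gins4 at 219 and 231 against 187 and 192 TPM (−0.25 ± 0.10, adjusted p = 0.11). The 4 estimates lay between −0.37 and −0.25, and no difference among them was tested. Of the genes that fire the helicase, Mcm10 differed by −0.30 ± 0.10 (adjusted p = 0.0673 by limma), the kinase gene Cdc7 by −0.20, its activator Dbf4 by −0.13, Cdc45 by −0.14 and Wdhd1, which ties the helicase to polymerase alpha, by −0.19; none overlapped between the genotypes and none passed.

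The polymerase and primase genes stood closest to 0. Of 8, 3 had a negative and 5 a positive estimate in anterior pieces, the median was 0.02, and none passed. Pold1, the catalytic subunit of polymerase delta, was at 152 and 148 TPM in the wild-type and 140 and 171 TPM in the mutant anterior libraries. Prim1, the catalytic primase subunit, was at 85.3 and 80.7 against 89.2 and 81.9 TPM. Pole, the catalytic subunit of polymerase epsilon, was at 35.7 and 32.6 against 36.0 and 36.6 TPM, the one gene of the group higher in both mutant libraries, while its partner Pole2, at 53.1 and 50.6 against 49.9 and 42.5 TPM, was the one lower in both. Pola1, the X-linked catalytic subunit of polymerase alpha, differed by 0.04 ± 0.13. The median of the group was −0.03 without mutant anterior library 163 and −0.01 without wild-type anterior library 156, so its sign is not settled by these libraries; no test of this group against the helicase genes was made.

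Of the 11 genes of the clamp, its loader, single-strand binding and flap processing, 8 had a negative estimate and 1 passed. Rfc3, a small subunit of the clamp loader on chromosome 5 (151642756 to 151651242, minus strand), was at 102 and 99.8 TPM in the wild-type and 74.3 and 75.5 TPM in the mutant anterior libraries (−0.42 ± 0.12, adjusted p = 0.0385 by limma). Its partners in the same 5-subunit loader differed by −0.06 (Rfc1), −0.13 (Rfc2), 0.06 (Rfc4) and −0.11 (Rfc5), and none of them passed. Pcna, the clamp itself, was at 441 and 457 against 397 and 395 TPM (−0.18 ± 0.094, adjusted p = 0.202 by limma). The single-strand binding genes Rpa1 and Rpa2 differed by −0.21 and −0.10, and Rpa3 by 0.04. Fen1 differed by −0.34 ± 0.11 (adjusted p = 0.0536 by limma), with the overlap given above, and Lig1, which seals the fragments, by 0.01.

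Nucleotide supply held both the largest called decrease in TPM and the largest positive estimate. Rrm2, on chromosome 12 (24708241 to 24714146, plus strand), was at 732 and 777 TPM in the wild-type and 586 and 551 TPM in the mutant anterior libraries (−0.41 ± 0.092, adjusted p = 0.0142 by limma). Rrm1, the large subunit with which Rrm2 forms the enzyme, was at 128 and 134 against 157 and 145 TPM, above the wild type in both mutant libraries without passing (0.20 ± 0.10, adjusted p = 0.177 by limma). The ratio of Rrm2 to Rrm1, a description chosen after the values were seen, was 5.72 and 5.81 in the wild-type and 3.74 and 3.79 in the mutant anterior libraries. It was 4.92 and 4.75 in the wild-type and 3.21 and 3.74 in the mutant posterior libraries, so it did not overlap between genotypes in either region.

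Tk1, the thymidine kinase of S phase cells on chromosome 11 (117815526 to 117826092, minus strand), was at 48.4 and 49.5 TPM in the wild-type and 37.8 and 36.9 TPM in the mutant anterior libraries (−0.38 ± 0.11, adjusted p = 0.0397 by limma). Its call was lost in 8 of 18 alternatives, the most of the 6, and that of Rrm2 in 4 of 18, the fewest. Tyms, the thymidylate synthase, was at 76.5 and 76.2 against 67.9 and 63.1 TPM (−0.22 ± 0.11, adjusted p = 0.193 by limma). Chaf1a and Chaf1b, subunits of the factor that places histones on new DNA, differed by −0.32 ± 0.11 and −0.18 ± 0.087, neither passing.

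The same comparison in posterior pieces gave no call: 0 of the 49 passed in either direction by limma. By adjusted p, 8.56% of all genes tested were higher and 2.93% lower, 11.5% in all. An unadjusted p under 0.05 was found for 5 of the 49, beside 4652 of the 16699 genes tested. Of these 5, Orc1, Orc2, Cdc6 and Rrm2 were lower and Cdt1 was higher. Rrm2 passed under median-of-ratios scaling (−0.39, adjusted p = 0.025) and quantile normalization (−0.31, adjusted p = 0.0301), both by limma, and Orc1 also passed under the former. The estimate was negative for 33 of 49, beside 7240 of the 16699 genes tested, with a median of −0.05 against 0.05 over all genes. In 11 of the 49 both mutant libraries lay below both wild-type ones, beside 3306 of the 16699 genes tested (19.8%), and in 7 above, beside 5570 (33.4%). This median turned to 0.06 with 19 negative when wild-type posterior library 153 was left out, and to 0.01 with 22 negative without mutant posterior library 159.

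Rrm2 was at 628 and 583 TPM in the wild-type and 483 and 483 TPM in the mutant posterior libraries, without overlap (−0.32 ± 0.092, adjusted p = 0.0562 by limma). Orc2 was at 119 and 100.2 against 82.3 and 90.3 TPM (−0.34 ± 0.12), and Orc1 at 43.3 and 38.7 against 34.8 and 34.6 TPM (−0.23 ± 0.095). Mcm5, at 539 and 509 against 478 and 492 TPM, and Gins3, at 39.9 and 34.3 against 30.8 and 33.9 TPM, separated by narrow gaps, with estimates of −0.11 ± 0.086 and −0.19 ± 0.11. Rfc3, at 99.3 and 80.5 against 69.0 and 82.0 TPM, and Tk1, at 44.3 and 41.0 against 35.8 and 43.5 TPM, overlapped. The 11 genes lower without overlap in both regions were Orc1, Orc2, Cdc6, Mcm4, Mcm5, Mcm10, Gins3, Rpa1, Fen1, Rrm2 and Chaf1b, beside 13.5% of all genes tested, and 1, Rrm1, was higher without overlap in both, beside 21.9%. The 7 that were higher in posterior pieces were Cdt1, Mcm2, Pola2, Prim1, Pold1, Pold2 and Rrm1, of which Cdt1 was at 146 and 146 TPM in the wild-type and 178 and 166 TPM in the mutant posterior libraries (0.24 ± 0.10, adjusted p = 0.175 by limma).

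By role, the posterior medians were −0.04 for licensing, −0.07 for the helicase, 0.06 for the polymerases and primase, −0.03 for the clamp group, −0.09 for nucleotide supply and −0.18 for chromatin assembly. Of these, licensing, helicase and clamp turned positive without wild-type posterior library 153 (0.06, 0.03 and 0.06), clamp and nucleotide supply without mutant posterior library 159 (both 0.04), and the polymerases fell to −0.003 under median-of-ratios scaling. The gap between the 2 wild-type posterior libraries was wider than the genotype medians. Wild-type posterior library 156 lay below library 153 in 48 of 49 members, by a median of 0.19 on the log2 scale (0.12 over all genes). It also held the highest Mir6236 level, 65297 TPM against 19019 to 42330 in the other 7 libraries. In anterior pieces Mir6236 separated the genotypes, at 41914 and 33531 TPM in the mutant and 19019 and 24888 TPM in the wild-type libraries (0.78 ± 0.26, adjusted p = 0.0616 by limma). The part of Mir6236 in the replication gene results was not tested. Between the mutant posterior libraries the difference of library 163 from library 159 went with exon length, with a Pearson r of −0.57 across the 49 genes and −0.35 across 9313 genes; genes are not independent replicates, and this is a description of those libraries.

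**Figure D4:**
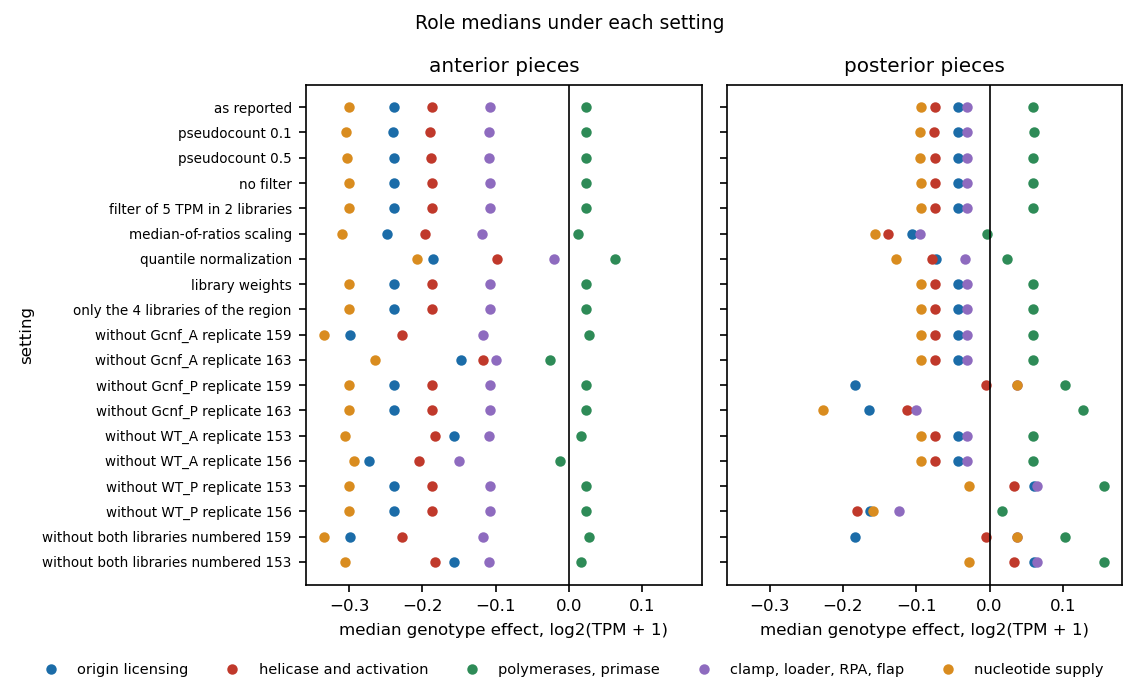
Each point is the median mutant minus wild-type difference of a role group in log2(TPM + 1), as reported and under each alternative, for 5 of the 6 roles. In anterior pieces licensing, helicase, clamp and nucleotide supply stay to the left of 0 in all settings shown and the polymerases lie between −0.03 and 0.06; in posterior pieces every role shown has points on both sides of 0.

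Whether the genotype effect differs between the regions was tested directly. None of the 49 passed by limma (background 0.413% higher and 0.599% lower, 1.01% in all). Of the 49, 1, Mcm5, had an unadjusted p under 0.05, beside 2109 of the 16699 genes tested. Mcm5 differed by −0.28 ± 0.12 (adjusted p = 0.393 by limma). The estimate was negative, meaning lower in the anterior comparison, for 45 of 49, beside 9325 of the 16699 genes tested. The median of the members was −0.11 against −0.04 over all genes. This lean moved with the scaling: the median was −0.05 with 35 negative under median-of-ratios scaling, and −0.008 with 26 negative under quantile normalization. The 6 calls in anterior and 0 in posterior pieces are therefore not shown to differ.

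Posterior and anterior pieces were also compared within each genotype. In the wild type 2 of 49 were lower in posterior pieces and 0 higher, beside 6.65% lower and 7.86% higher, 14.5% in all, over all genes. Orc1, on chromosome 4 (108579423 to 108614833, plus strand), was at 54.8 and 55.2 TPM in anterior and 43.3 and 38.7 TPM in posterior libraries (−0.42 ± 0.095, adjusted p = 0.0192 by limma), and Chaf1b at 99.2 and 96.6 against 79.9 and 75.0 TPM (−0.33 ± 0.087, adjusted p = 0.0336 by limma). The estimate was negative for 48 of 49 with Orc4 the exception, beside 10615 of the 16699 genes tested. The median of the members was −0.20 against −0.10 over all genes. Of the 49, 40 were lower without overlap, beside 6959 of the 16699 genes tested (41.7%). With median-of-ratios scaling the median was −0.12 against −0.02 (45 negative), and with quantile normalization −0.11 against −0.07 (42 negative). The polymerases and primase had the lowest median of the roles, −0.30 (−0.21 under median-of-ratios scaling and −0.22 under quantile normalization), with Pold1 at 152 and 148 against 118 and 110.5 TPM (−0.39 ± 0.11, adjusted p = 0.0509 by limma). Both calls were lost without wild-type anterior library 153 or 156, or without wild-type posterior library 156, and that of Chaf1b also without wild-type posterior library 153.

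In the mutants Orc1 alone was lower in posterior pieces, at 46.3 and 44.1 TPM in anterior and 34.8 and 34.6 TPM in posterior libraries (−0.37 ± 0.095, adjusted p = 0.0286 by limma), beside 8.1% lower and 8.01% higher, 16.1% in all, over all genes. Its call was lost when any 1 anterior library of either genotype, or either mutant posterior library, was left out. The estimate was negative for 37 of 49, beside 9266 of the 16699 genes tested, with a median of −0.10 against −0.04 over all genes. Of the 49, 19 were lower without overlap, beside 5015 of the 16699 genes tested (30%). Chaf1b was at 85.2 and 86.9 TPM in anterior and 68.4 and 72.2 TPM in posterior libraries (−0.29 ± 0.087, adjusted p = 0.0549 by limma). These comparisons share their anterior or posterior libraries with the genotype comparisons.

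Of 36 other fork and nucleotide genes, 9 were lower and 1 was higher in mutant anterior pieces, and 3 were lower and 1 higher in posterior pieces, beside the backgrounds given above; 27 and 26 of the estimates were negative. Asf1b, a histone chaperone of replicating cells, was at 100.4 and 98.2 TPM in the wild-type and 65.0 and 63.9 TPM in the mutant anterior libraries (−0.62 ± 0.093, adjusted p = 0.0026 by limma). In posterior libraries it was at 87.0 and 77.1 against 56.2 and 58.4 TPM (−0.51 ± 0.093, adjusted p = 0.0113 by limma), without overlap. Recql4, a helicase that acts at initiation, was lower by −0.67 ± 0.10 in anterior and −0.49 ± 0.10 in posterior pieces (adjusted p = 0.00278 and 0.0195 by limma). Samhd1, which degrades deoxynucleotides, was lower by −0.46 and −0.45 (adjusted p = 0.0103 and 0.0209 by limma). Chtf18, of an alternative clamp loader, was lower in anterior pieces by −0.48, and Pold4, a small polymerase delta subunit at 3.23 to 7.57 TPM, was higher by 0.75 and 0.79 in the 2 regions. With any 1 library left out, Asf1b and Recql4 were still called in anterior pieces. Other calls were lost: Samhd1, Chtf18 and Pold4 in anterior pieces without wild-type library 156 (adjusted p = 0.0642, 0.0587 and 0.0695 by limma), Samhd1 and Pold4 also without mutant library 163 (0.0582 and 0.0562), Samhd1 and Chtf18 without wild-type library 153 (0.0976 and 0.0779). In posterior pieces Asf1b, Recql4, Samhd1 and Pold4 were lost without wild-type library 153 (adjusted p = 0.079, 0.117, 0.119 and 0.0888 by limma), the latter 3 without wild-type library 156 (0.0539, 0.0692 and 0.0741), Samhd1 and Pold4 without mutant library 163 (0.0773 and 0.0511) and Recql4 without mutant library 159 (0.0579). With only the 4 posterior libraries in the fit Recql4 and Samhd1 were lost as well (0.0653 and 0.0737).

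The control genes of the G1/S step, which lies upstream of origin firing, held larger differences than any replication gene. In mutant anterior pieces 9 of 32 were higher and 5 lower, beside 13.3% higher and 10.2% lower over all genes tested, and in posterior pieces 6 were higher and 2 lower, beside 8.56% and 2.93%. Ccne1, which encodes cyclin E1, the partner of CDK2 at S phase entry, was at 201 and 173 TPM in the wild-type and 95.0 and 105 TPM in the mutant posterior libraries, and its difference was −1.28 ± 0.11 in anterior and −0.89 ± 0.11 in posterior pieces (adjusted p = 0.000231 and 0.00204 by limma). Ccnd1, cyclin D1, was at 256 and 268 against 132 and 127 TPM in anterior and at 249 and 221 against 175 and 182 TPM in posterior libraries (−1.01 ± 0.093 and −0.39 ± 0.093, adjusted p = 0.000293 and 0.0308 by limma). Both cyclin genes were lower in every mutant library than in every wild-type library of the same region. The Ccne1 calls and the anterior Ccnd1 call held with any 1 library left out. The posterior Ccnd1 call was lost without any 1 of the posterior libraries or of the wild-type anterior libraries (adjusted p = 0.0502 to 0.158 by limma), and also with no filter on low values, with library weights and with only the 4 posterior libraries (0.0654, 0.056 and 0.101).

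Cdkn1b, which encodes the CDK inhibitor p27, was at 26.2 and 30.2 TPM in the wild-type and 76.1 and 77.0 TPM in the mutant anterior libraries, and at 23.4 and 24.7 against 44.7 and 61.5 TPM in the posterior ones. It was higher by 1.41 ± 0.15 and 1.09 ± 0.15 (adjusted p = 0.000489 and 0.003 by limma). Cdkn1a, which encodes the inhibitor p21, was higher by 0.46 ± 0.11 and 0.85 ± 0.11, at 5.40 to 8.10 TPM in anterior and 18.1 to 36.2 TPM in posterior libraries. Its anterior call was lost under quantile normalization (adjusted p = 0.138 by limma) and without any 1 of the 4 anterior libraries (0.0626 to 0.129). Tfdp2, a dimer partner of the E2F proteins, was higher in anterior pieces by 0.96 ± 0.13 (adjusted p = 0.00155 by limma). E2f1 and E2f2 were also called higher and E2f4 lower in anterior pieces, and E2f2 higher in posterior pieces. Each of these E2F calls was lost with some library left out. Rb1 was higher by 0.79 in anterior and 0.52 in posterior pieces (adjusted p = 0.00381 and 0.036 by limma). Its anterior call was lost in 0 of 18 alternatives and its posterior call in 10 of 18. Mycn, a MYC family gene, was higher by 0.43 ± 0.087 in anterior and 0.49 ± 0.087 in posterior pieces (adjusted p = 0.00889 and 0.0103 by limma), and Cdkn2d, which encodes a CDK inhibitor, by 0.48 ± 0.11 in both (adjusted p = 0.0168 and 0.029 by limma). Both anterior calls were lost without mutant library 163 or either wild-type anterior library (adjusted p = 0.0532 to 0.104 by limma). The posterior Mycn call was lost without wild-type library 153 or 156 (0.0739 and 0.0557), and that of Cdkn2d without those, mutant posterior library 163 or either wild-type anterior library (0.0554 to 0.136), with no filter on low values (0.0697) or with only the 4 posterior libraries (0.0677). Myc was at 149 and 163 TPM in the wild-type and 80.8 and 78.3 TPM in the mutant anterior libraries, and at 110 and 105 against 126 and 117 TPM in the posterior ones. Myc was thus lower in mutant anterior pieces (−0.96 ± 0.091, adjusted p = 0.000335 by limma) and did not pass in posterior pieces (0.18 ± 0.091, adjusted p = 0.239 by limma).

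**Figure D5:**
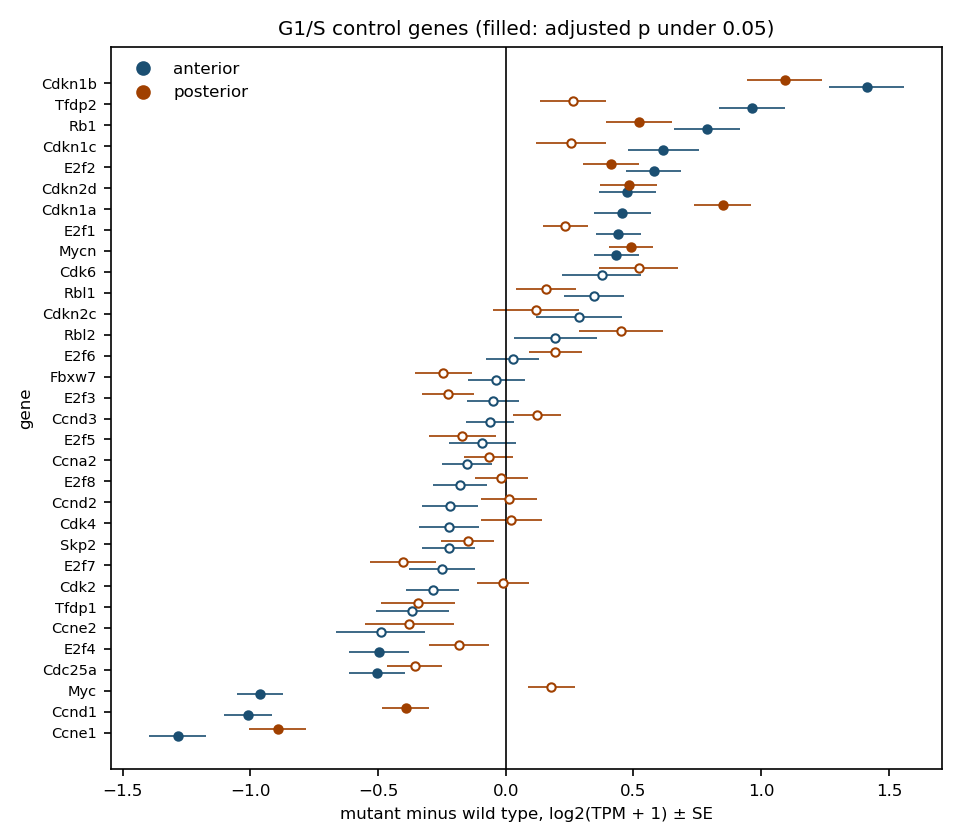
Points give the mutant minus wild-type difference in log2(TPM + 1) with its standard error for 32 G1/S control genes, in anterior (blue) and posterior (brown) pieces, filled where the adjusted p was under 0.05. Ccne1 and Ccnd1 are at the low end and Cdkn1b at the high end in both regions, while the Myc points lie on opposite sides of 0.

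Of 28 mitosis genes, 5 were lower and 1 higher in mutant anterior pieces, and 0 were lower and 2 higher in posterior pieces. Over all genes tested these shares were 10.2% and 13.3% in anterior and 2.93% and 8.56% in posterior pieces. Plk1, Aurka, Cdc20 and Birc5, which act at the spindle and in mitotic exit, were lower in anterior pieces, with differences from −0.39 for Birc5 to −0.34 for Aurka (adjusted p = 0.0277 to 0.0449 by limma). These 4 calls were lost under quantile normalization, where their adjusted p was 0.0531 to 0.147, with no filter on low values (0.0596 to 0.108) and without mutant anterior library 159 or either wild-type anterior library (0.14 to 0.193). Aurka, Birc5 and Cdc20 were also lost without mutant anterior library 163 (adjusted p = 0.0602 to 0.13 by limma), and Cdc20 without either wild-type posterior library (0.0588 and 0.0592). Cdc25b, the phosphatase that starts mitosis, was higher by 0.55 ± 0.097 and 0.78 ± 0.097 in the 2 regions (adjusted p = 0.00499 and 0.00208 by limma), and Pttg1, which encodes securin, by 0.47 ± 0.12 in posterior pieces. The anterior Cdc25b call was lost without wild-type anterior library 153 (adjusted p = 0.0536 by limma), and the Pttg1 call without any 1 library other than mutant posterior library 159 (adjusted p up to 0.163), with no filter, with library weights and with only the 4 posterior libraries (0.101, 0.0705 and 0.0864).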

How the data were processed

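RNA was poly(A) selected and sequenced without strand information, per the labels' protocols; CASAVA 1.8.2, STAR and the mm10 build are named per the submitters' processing notes, and no source used here names the annotation or the counting tool. A single TPM table was deposited by the authors, in which each of the 8 columns sums to 1000000. Whole-read steps in the values gave 27064113 to 52957993 reads in genes per library (98.8% of values whole to within 0.01 read). Identifiers were named with GENCODE M21 (GRCm38). Values were tested with limma 3.58.1 in R 4.3.3 on log2(TPM + 1), with a mean-variance trend and 4 group means over all 8 libraries, for genes at 1 TPM or more in at least 2 libraries (16699 genes, all 49 members), two-sided. Fold changes on this scale understate those of low genes. The script was tested on simulated data with changes larger than those of any member, so that test does not cover effects of the size reported here. Pseudocounts, filters, scalings, weights and left-out libraries were varied. The members and lists were chosen with earlier results of these data known. All members could be named. Of other lists, up to 5 passing genes with the smallest p per genotype comparison were named. Beyond these, E2f1, E2f2, E2f4 and Rb1 were named because the promoter search concerned E2F words.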

Additional observations from a re-analysis of the deposited data

Results flagged for a closer look

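The genotype effect on Myc differed between the regions by the test of the difference itself. Myc was at 156 ± 9.43 TPM in wild-type and 79.5 ± 1.79 TPM in mutant anterior pieces (SD, n = 2), and at 107 ± 3.71 and 122 ± 6.10 TPM in posterior pieces. The anterior effect minus the posterior effect was −1.14 ± 0.13 on the log2 scale (adjusted p = 0.00747 by limma), and the adjusted p ran from 0.00371 to 0.22 over 18 alternatives. Leaving out wild-type posterior library 153 or 156 ended the call, with adjusted p-values of 0.0524 and 0.0611 by limma, and so did leaving out both libraries numbered 153 (0.22). With 2 libraries a group no single library could be judged to stand apart.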

How the results depend on the processing

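The anterior count of 6 members lower became 2 with no filter on low values, 10 under median-of-ratios scaling, 12 with library weights, 14 with only the 4 anterior libraries, and 0 to 10 with 1 library left out (0 without mutant library 163 or wild-type library 153 or 156 of the anterior group). The posterior count of 0 lower became 2 under median-of-ratios scaling and 1 under quantile normalization. In the wild type the 2 members lower in posterior pieces became 1 under quantile normalization, 9 with library weights and 0 to 4 with 1 library left out. In the mutants the 1 lower became 2 under both scalings and 0 to 2 with 1 library left out, and the 0 higher became 0 to 1 (Gins2 without mutant posterior library 159). Chosen after seeing the data, leaving out both libraries numbered 153 gave 0 lower in the anterior, the wild-type region and the mutant region comparisons, and leaving out both numbered 159 gave 4 lower in anterior pieces and 6 in the wild-type region comparison. Over all genes the anterior calls, 3937, ran from 1545 to 4563 with 1 library left out (1545, 1840 and 2044 without wild-type 153, wild-type 156 and mutant 163) and were 652 without both libraries numbered 153. The posterior calls, 1919, fell to 383 and 625 without wild-type posterior libraries 153 and 156, 954 with no filter, 1102 with weights and 180 without both numbered 153, and 74.5% of them were higher, against 55.2% and 53.9% under median-of-ratios and quantile scaling. Interaction calls, 169, were 20 to 209 with 1 library left out, 55 with no filter and 0 without both numbered 153. Region calls were 2422 in the wild type (1182 to 2880 with 1 library left out, 573 without both numbered 153) and 2690 in the mutants (1732 to 2770, and 1708). Settings with 1 library in a group assume that it varies like the other groups. The cause of these shifts was not tested.

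Libraries of a region pair share only a number in the labels. Their deviations from the group means were correlated between the regions. With 2 libraries a group the deviations mirror each other, so each genotype gives a single value. It was 0.02 in the wild type (153 and 156) and 0.14 in the mutants (159 and 163) over all genes tested. Over the 49 members it was 0.53 and −0.34. Genes are not independent replicates, so these values are a description. With the number as a replicate block the member counts were 2 and 1 lower in the region comparisons and 0 for the difference of the genotype effects, and all-gene calls were 2404, 2617 and 115; the block changed no member's call.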
